A study of Mus musculus with 10 samples.

Results

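The genes described here are 31 interferon-stimulated antiviral genes, read from expression arrays of mouse mesenchymal stem cells and of a tumor cell line derived from them. They were chosen by name: each is a non-control probe whose gene name in the array files is on a list of known interferon targets, and where a gene has several probes the brightest was used. All 31 were on the array, among 34724 gene names in all, and all 31 passed the filter on dim probes. Levels are log2 probe signals minus the 75th percentile of the same array, so that 0 is the signal at that percentile, and a difference of 1 is 2-fold. A level depends on the probe as well as on the RNA, so levels were compared between samples and not between genes.

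Interferons are secreted proteins that bind receptors on the cell surface and act through Janus kinases and STAT proteins. Type I interferons assemble a complex with STAT2 and IRF9 that binds the interferon-stimulated response element, a short DNA motif upstream of antiviral genes, and type II interferon acts largely through another motif, the gamma-activated site. The induced proteins sense or degrade viral RNA, block viral translation or entry, and regulate the response itself. Mesenchymal stem cells can express some of these genes at rest, without added interferon or virus.

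The cells came from FVB mice and were of 5 kinds, each with 2 arrays from separate cultures. Wild-type adipose-derived cells (WT ASC) were grown from fat, and wild-type bone marrow cells (WT BM-MSC) from marrow; neither was primed. The null ASC and null BM-MSC carried floxed Rb and p53 alleles, received 10 days of osteogenic medium, and were then infected with an adenovirus that expresses Cre recombinase from the CMV promoter; one label names Rb-/-p53-/- mice in place of this, and the sources used here do not settle which holds. The tumor line was grown out of a tumor that primed null BM-MSC formed under the skin of immunodeficient NSG mice. Per the labels, null BM-MSC and the tumor line form tumors and null ASC do not. Once derived, cultures of all 5 kinds were kept in the same growth medium and harvested in exponential growth between passages 2 and 5, and no added interferon is recorded for any of them. Null and wild-type cells therefore differ also in priming and, as far as the labels tell, in exposure to adenovirus, and these cannot be told apart from the loss of Rb and p53. The labels do not say whether duplicate cultures came from separate animals, so p-values measure the spread between cultures, which may be technical.

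The 10 arrays were alike in depth of signal: 53.3% to 58.4% of spots were well above background, no spot was saturated, and duplicates correlated at 0.994 to 0.996 over probes. The 8 arrays of ASC and BM-MSC lay on 1 slide and the 2 tumor arrays on another, so slide and tumor line cannot be told apart. On the first slide the wild-type arrays filled 1 line and the null arrays the other, so line and genotype cannot be told apart either. Rb1 read 1.59 in WT ASC and -1.64 in null ASC, but 2.18 in WT BM-MSC and 0.88 in null BM-MSC; Trp53 read 1.34 and -4.51 in ASC, and 1.04 and -0.72 in BM-MSC. Both genes were thus lower in null cells of each tissue and the drop was smaller in BM-MSC, where signal remained. The changes differed between tissues by 1.92 for Rb1 (adjusted p 2.98e-05 by limma) and 4.09 for Trp53 (adjusted p 0.000176). In the tumor line Rb1 read -1.67 and Trp53 -7.27, the latter not well above background on either array. Null BM-MSC thus held more signal of both genes than null ASC or the tumor line. Comparisons of null BM-MSC with those groups, and of the changes between tissues, hold this difference as well. All 12 mesenchymal stem cell markers were well above background on all arrays. The list of 13 macrophage and myeloid markers, 12 of them on the array, had 7 well above background on every array. The log2 of its summed signal was 5.17 to 5.37 in WT ASC, 5.14 to 5.15 in WT BM-MSC, 4.38 to 4.47 in null ASC, 4.15 to 4.23 in the tumor line and 4.84 to 4.90 in null BM-MSC. In such a sum the brightest probe weighs most, here that of Itgam. In bulk RNA, fewer cells of a type and less RNA per cell cannot be told apart.

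The DNA upstream of the members is shown because these genes moved together between tissues and the motif is what their regulation is named for. RefSeq (GRCm38.p6) gave the 250 bases before the start of 22 of the 31 genes. The core of the interferon-stimulated response element, searched as GAAA, any 2 bases and GAAA again, on either strand and with overlapping matches allowed, was found in 8 of these 22 (36.4%), against 3.46% of all 27025 genes with a window. The 8 were Ifit1, Ifit3, Isg15, Oas1a, Oas3, Stat2, Rsad2 and Bst2. Stretches from 6 of them follow on the strand of the gene, with core matches in capitals; on the opposite strand the core reads as its reverse complement. A match is a description of the sequence and not a measured binding site.
Isg15, chr4:156200853-156200918, minus strand: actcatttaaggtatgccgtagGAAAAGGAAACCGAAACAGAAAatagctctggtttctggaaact
Ifit1, chr19:34640763-34640835, plus strand: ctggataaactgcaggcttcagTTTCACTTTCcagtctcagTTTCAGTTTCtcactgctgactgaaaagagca
Ifit3, chr19:34583351-34583438, plus strand: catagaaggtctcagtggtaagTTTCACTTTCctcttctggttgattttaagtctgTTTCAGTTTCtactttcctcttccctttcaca
Oas1a, chr5:120907526-120907567, minus strand: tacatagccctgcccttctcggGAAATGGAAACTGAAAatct
Rsad2, chr12:26456541-26456594, minus strand: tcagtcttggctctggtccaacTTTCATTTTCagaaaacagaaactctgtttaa
Bst2, chr8:71537565-71537624, minus strand: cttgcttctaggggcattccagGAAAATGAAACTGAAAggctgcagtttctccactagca

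In Isg15, Oas1a and Bst2 the matches overlap into a longer run, whereas Ifit1 and Ifit3 carry 2 separate matches. The gamma-activated site TTCNNNGAA, which reads the same on both strands, was found in 5 of the 22 (22.7%, against 8.13% of all genes): Ifit2, Oas1a, Irf1, Bst2 and Eif2ak2. Several members also neighbour each other in the genome by the array's probe positions (mm9): Ifit2, Ifit3 and Ifit1 on chromosome 19, Oas2, Oas3 and Oas1a and also Oasl2 and Oasl1 on chromosome 5, and Mx1 with Mx2 and Parp14 with Parp9 on chromosome 16. Ifit3 has a near-identical copy, Ifit3b, so its signal may hold both.

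Most members were higher in fat-derived cells than in marrow-derived cells, whatever the genotype. For 29 of the 31, all 4 ASC arrays lay above all 6 other arrays, a pattern held by 12.3% of the genes tested; Oasl1 and Irf1 were the exceptions. The group mean was highest in null ASC for 28 members, in WT ASC for Ifit2 and Ifit3, and in the tumor line for Irf1. It was lowest in WT BM-MSC for 17 members, in the tumor line for 12, and in null BM-MSC for Irf7 and Trim25. The spread of the 5 group means had a median of 4.15 log2 units over the members, against 1.06 over all genes tested, and ran from 0.73 for Irf1 to 10.4 for Oas2. In ASC of either genotype the probes of all 31 members cleared the background on each array; on both arrays of a group, 27 did so in WT BM-MSC, 29 in the tumor line and 30 in null BM-MSC.

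**Figure D1:**
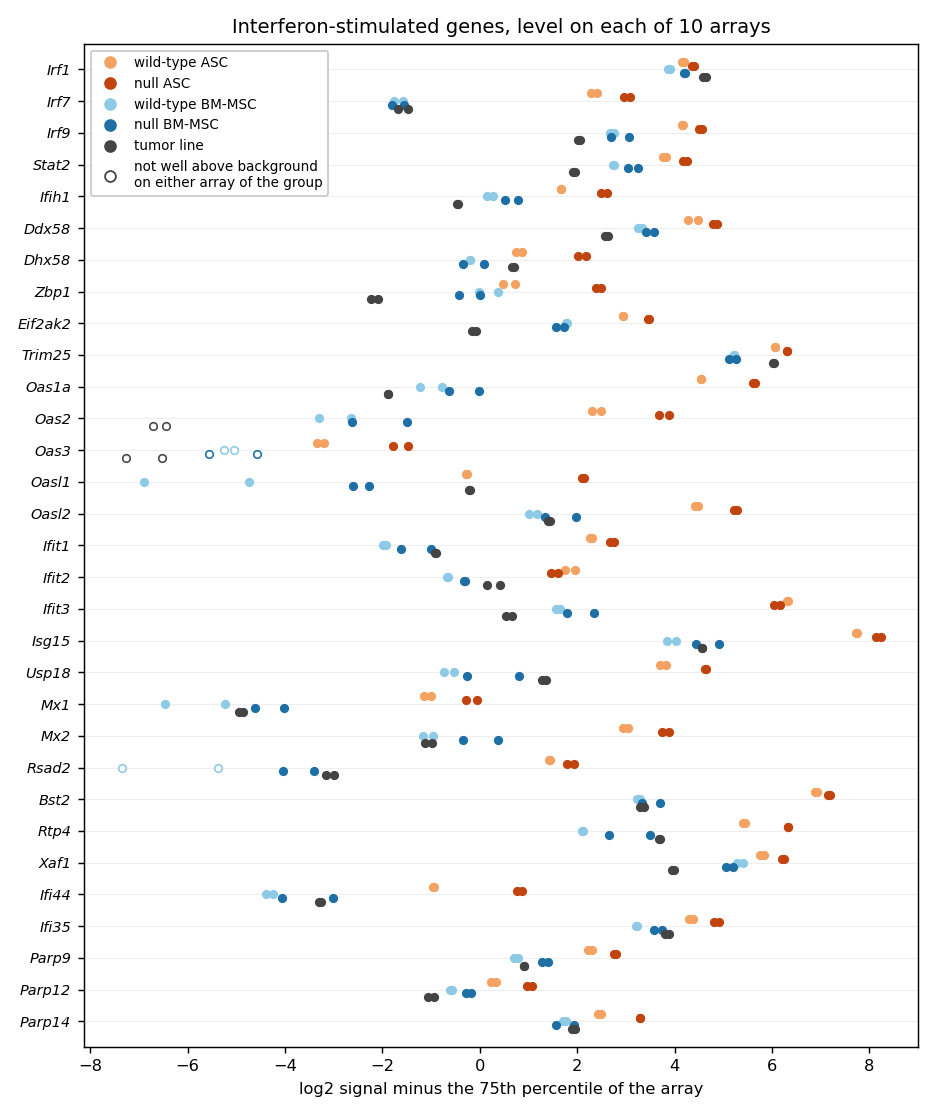
Level of each of the 31 members on each of the 10 arrays, as log2 signal minus the array's 75th percentile, with 1 row a gene and colours for the 5 groups; open circles mark groups where the probe was not well above background on either array. The ASC arrays sit to the right of the others for 29 of the 31 members.

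Between wild-type tissues, 30 of the 31 members were lower in BM-MSC than in ASC and none was higher by limma with Benjamini-Hochberg adjustment over all 22601 genes tested, where 28.5% of genes were lower and 53.7% were called in either direction. The median difference of the members was -2.52, against -0.05 for all genes, and 25 members differed by more than 2-fold. Between null tissues all 31 were lower in BM-MSC, where 30% of genes were lower and 55.2% were called in either direction, with a median of -3.26 against -0.03 and 30 past 2-fold. The arrays did not overlap between tissues for any member in either genotype, as for 75% of genes in wild-type and 78.7% in null cells.

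Isg15 encodes a ubiquitin-like protein that is conjugated to other proteins and also secreted. It read 7.75 and 7.73 in WT ASC, 8.23 and 8.14 in null ASC, 4.03 and 3.85 in WT BM-MSC, 4.45 and 4.92 in null BM-MSC, and 4.56 and 4.57 in the tumor line. The ASC arrays were all far above the rest, and the marrow-derived arrays were within about 1 unit of each other. The wild-type tissues differed by -3.80 (SE 0.147, adjusted p 2.75e-06). Usp18, the protease that removes ISG15 and restrains receptor signalling, read 3.69 and 3.82 in WT ASC and -0.74 and -0.53 in WT BM-MSC, a difference of -4.39.

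The IFIT proteins bind viral RNA and limit its translation. Ifit1 read 2.29 and 2.26 in WT ASC, 2.75 and 2.67 in null ASC, -2.00 and -1.93 in WT BM-MSC, -1.62 and -1.01 in null BM-MSC, and -0.92 and -0.91 in the tumor line. Its tissues stood apart by more than 3 units at the closest. Ifit3 read 6.31 and 6.34 in WT ASC against 1.56 and 1.64 in WT BM-MSC, and Ifit2, with 1.74 and 1.96 against -0.67 and -0.66, had the smallest tissue difference of the 3. The wild-type differences were -4.24 for Ifit1 (SE 0.177, adjusted p 3.8e-06), -4.72 for Ifit3 (SE 0.171, adjusted p 2.04e-06) and -2.52 for Ifit2.

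The oligoadenylate synthetases make the second messenger that activates RNase L, which degrades RNA. Oas1a read 4.54 and 4.54 in WT ASC, 5.62 and 5.66 in null ASC, -0.77 and -1.23 in WT BM-MSC, -0.63 and -0.02 in null BM-MSC, and -1.89 and -1.88 in the tumor line. Both ASC groups were clear of all others, and the tumor line lay at the bottom. The difference was -5.54 between wild-type tissues (SE 0.217, adjusted p 2.87e-06) and -5.96 between null tissues (SE 0.217, adjusted p 1.88e-06). Oas2 differed by -5.38 and -5.84. Oasl2, a related protein, differed by -3.36 between wild-type tissues. Oas3 was not well above background in either marrow group, so only a bound holds, at least 3.69-fold lower than in ASC for wild-type and at least 9.52-fold for null cells. Such bounds set the bright group's mean against the lowest signal among probes well above background on the dim arrays, or the dim probe's own signal where that was higher.

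Of the membrane and particle effectors, Mx1 and Mx2 are dynamin-like GTPases, Bst2 (tetherin) holds budding virions at the membrane, and Rsad2 (viperin) makes a nucleotide that stops viral polymerases. Rsad2 read 1.43 and 1.42 in WT ASC, 1.92 and 1.79 in null ASC, -5.37 and -7.35 in WT BM-MSC, -4.03 and -3.40 in null BM-MSC, and -3.15 and -3.00 in the tumor line. On neither WT BM-MSC array was the probe well above background, and it was at least 110.1-fold lower there than in WT ASC (adjusted p 5.51e-05). Between null tissues, where it was measured on all 4 arrays, the difference was -5.57 (SE 0.586, adjusted p 0.000253). With normexp background correction, which adds an offset to every spot and so draws dim signals together, the Rsad2 differences were -4.05 in wild-type and -3.92 in null cells. Bst2 differed by nearly the same amount in both genotypes, -3.65 in wild-type and -3.64 in null cells.

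Of the signalling factors, Irf7, which amplifies type I interferon production, read 2.28 and 2.41 in WT ASC, 3.08 and 2.97 in null ASC, -1.58 and -1.77 in WT BM-MSC, -1.81 and -1.55 in null BM-MSC, and -1.48 and -1.69 in the tumor line. The 3 marrow-derived groups overlapped. The tissues differed by -4.02 in wild-type (SE 0.123, adjusted p 1.06e-06) and -4.70 in null cells (SE 0.123, adjusted p 5.03e-07). Stat2 and Irf9, of the type I complex, differed by -1.05 and -1.45 in wild-type cells. Irf1, an early factor that acts on both interferon pathways, had the smallest difference, -0.29 in wild-type (SE 0.0454, adjusted p 0.00189) and -0.17 in null cells (SE 0.0454, adjusted p 0.017). Its call between null tissues was lost when any 1 of the 4 null arrays was left out, and both of its calls rest on the brighter of 2 probes, since the other was not well above background on any array.

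The 6 sensors and their partners had a median wild-type difference of -1.04, against -4.42 for the 4 membrane and particle effectors. Ddx58 (RIG-I) and Ifih1 (MDA5) recognise viral RNA, Dhx58 (LGP2) modulates them, Trim25 is a ubiquitin ligase of the RIG-I pathway, Eif2ak2 (PKR) stops translation on double-stranded RNA, and Zbp1 binds Z-form nucleic acid. Between wild-type tissues the differences were -1.08 for Ddx58, -1.46 for Ifih1, -0.85 for Trim25 and -1.16 for Eif2ak2, and Dhx58 read 0.73 and 0.87 in WT ASC against -0.20 and -0.21 in WT BM-MSC. Zbp1 was the member that missed the threshold, at -0.42 (SE 0.185, adjusted p 0.104): it read 0.48 and 0.72 in WT ASC against 0.38 and -0.01 in WT BM-MSC. In null cells it differed by -2.65, with 2.38 and 2.50 in null ASC and -0.42 and 0.01 in null BM-MSC. The 3 ADP-ribosyltransferases, Parp9, Parp12 and Parp14, differed by -1.53, -0.88 and -0.73 in wild-type cells. The other induced genes ran from -0.44 for Xaf1, a promoter of cell death, to -3.36 for Ifi44, with Rtp4, a receptor chaperone, at -3.32 and Ifi35 at -1.12.

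The 8 genes with the response element core in the 250 bases had a median wild-type tissue difference of -4.02, and the 14 with a window and no match one of -1.31. The medians between null tissues were -3.83 and -1.74. Between null and wild-type cells they were 0.43 and 0.52 in ASC, and 0.56 and 0.33 in BM-MSC. The number of genes is small, members with a bound enter at their fitted value without moving these medians, and no test was made. Another 9 members had no window and enter neither median: Oas2, Mx1, Mx2, Usp18, Dhx58, Rtp4, Parp9, Parp14 and Zbp1. They include members with large wild-type tissue differences, such as Oas2 and Usp18, and with small ones, such as Zbp1. Markers of other cells moved with tissue as well. Cd68 and Lyz2, myeloid genes, were lower in WT BM-MSC than in WT ASC by log2 differences of -1.60 and -1.94, while the myeloid Csf1r was higher by 0.47. Group means in WT ASC and WT BM-MSC were 0.54 and -1.29 for Aif1, 1.87 and 1.21 for Cd14, and -2.34 and -1.34 for Fcer1g. They lay closer for Itgam (4.78 and 4.81) and Adgre1 (-3.95 and -3.87). The endothelial Flt1 was lower in WT BM-MSC by a log2 difference of -3.26. Emcn, another endothelial gene, was well above background in ASC alone, and Cdh5 and Tek were not well above background on any array. Pecam1 and Kdr were well above background on all arrays. Their group means were -3.39 and 2.29 in WT ASC, and -3.28 and 2.14 in WT BM-MSC. The log2 of the summed signal of the 6 endothelial markers was 3.36 on both WT ASC arrays, 2.31 to 2.39 in WT BM-MSC, 2.59 to 2.67 in null ASC and 2.42 to 2.50 in null BM-MSC. The part of these cells in the tissue difference was not tested.

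The null cells were set against wild-type cells of the same tissue to ask what accompanied loss of Rb and p53. In ASC, 23 of the 31 members rose and none fell, where 21.1% of all genes rose, 19.9% fell and 41% were called in either direction. The members' median change was 0.68, against -0.01 for all genes, and 7 members rose more than 2-fold. The null and wild-type arrays did not overlap for any of the 31, as for 69.5% of genes. In BM-MSC 15 rose and Xaf1 fell, where 19.6% of genes rose, 19.3% fell and 39% were called in either direction; the median was 0.43, against 0.02, and 4 rose more than 2-fold. The arrays did not overlap for 24 of the 31, as for 71.2% of genes. Both comparisons share arrays with the tissue comparisons above.

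**Figure D2:**
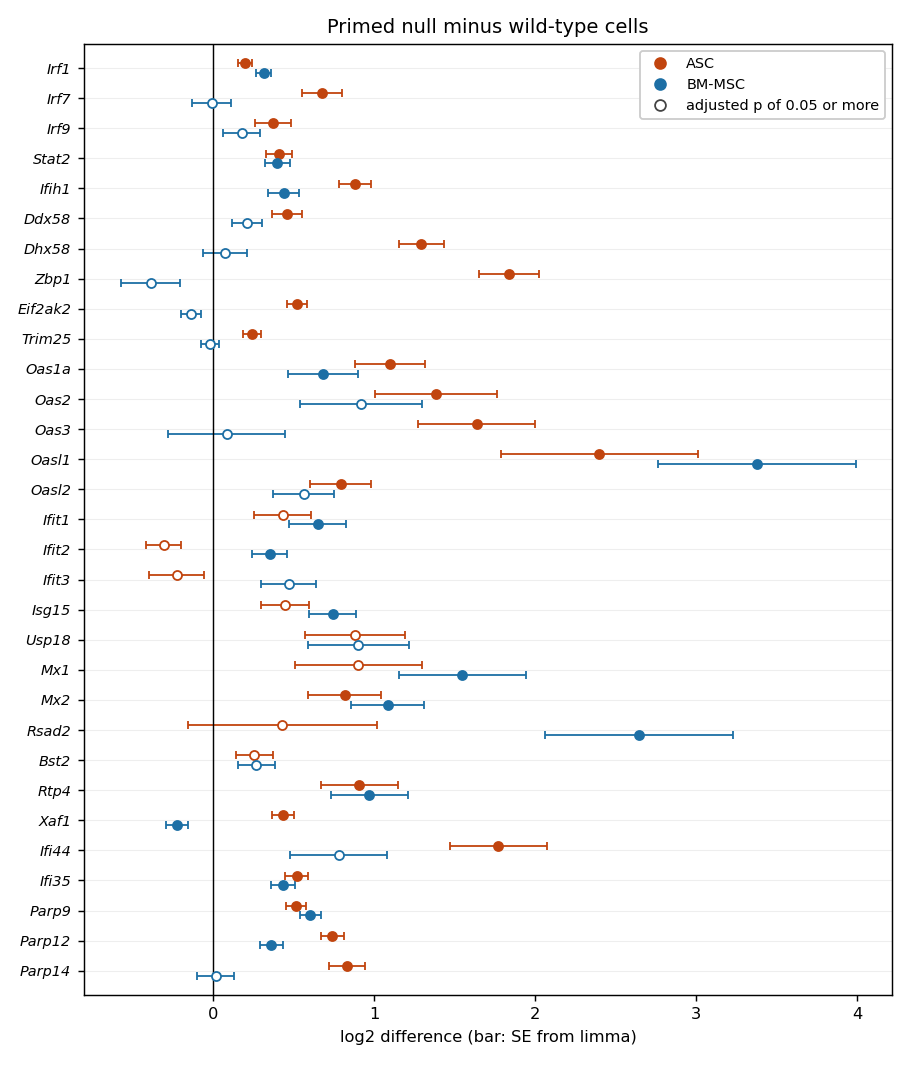
Log2 difference of null minus wild-type cells for each of the 31 members, in ASC and in BM-MSC, with limma's standard error as bars; open circles are differences with an adjusted p at or above 0.05. The 23 filled ASC points all lie above 0, and Xaf1 is the filled BM-MSC point below 0.

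In ASC the rise took in all 4 signalling factors, all 6 sensors, all 5 oligoadenylate synthetases and related proteins, all 3 ADP-ribosyltransferases and all 4 other induced genes. At the threshold used, it took in Mx2 alone of the 4 membrane and particle effectors, and none of the 3 IFIT genes or of Isg15 and Usp18. Dhx58 read 0.73 and 0.87 in WT ASC and 2.17 and 2.02 in null ASC, a rise of 1.29 (SE 0.138, adjusted p 0.000521). Zbp1 rose by 1.84 (SE 0.185, adjusted p 0.000402). Ifi44, of unsettled biochemical function, read -0.96 and -0.95 in WT ASC and 0.87 and 0.77 in null ASC, a rise of 1.77 (SE 0.301, adjusted p 0.0039). In each of these the duplicates lay close together and the groups far apart.

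Oasl1, which restrains translation of Irf7, read -0.29 and -0.27 in WT ASC and 2.14 and 2.10 in null ASC, a rise of 2.40 (SE 0.613, adjusted p 0.0208). Its standard error is set largely by the marrow arrays, since all groups share 1 estimate of the spread and its WT BM-MSC duplicates read -6.90 and -4.74. Oas3 rose by 1.64 (SE 0.363, adjusted p 0.012), Oas2 by 1.39 and Oas1a by 1.10 (SE 0.217, adjusted p 0.00748). Irf7 rose by 0.68 (SE 0.123, adjusted p 0.00531) and Parp12 by 0.74 (SE 0.071, adjusted p 0.000328). The members that missed the threshold included Ifit2 at -0.31 (adjusted p 0.0645), Ifit3 at -0.23 (adjusted p 0.345), Ifit1 at 0.43 (adjusted p 0.0994), Isg15 at 0.45 (adjusted p 0.0521) and Usp18 at 0.88 (adjusted p 0.0648). The errors of Isg15 and Usp18 also draw on null BM-MSC, where their duplicates lay 0.47 and 1.07 apart. In ASC the duplicates of these 2 genes were at most 0.13 apart. A fit of the ASC arrays alone called 25 members higher and none lower. Ifit2 and Ifit3 were the only members whose ASC difference was below 0.

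The count of 23 fell to 15 without WT ASC replicate 1 or without either null ASC replicate. The members whose rise lost its call without at least 1 array were Irf1, Irf9, Mx2, Oas2, Oas3, Oasl1, Oasl2, Rtp4 and Trim25, and the other 14 kept it. The myeloid marker sum was lower in null ASC than in WT ASC. Cd68 was lower by a log2 difference of -0.93 and Lyz2 by -2.97, the latter well above background on 1 null ASC array. Group means in WT and null ASC were 4.78 and 3.78 for Itgam and 1.87 and 1.17 for Cd14. They lay closer for Aif1 (0.54 and 0.43), Csf1r (1.10 and 1.04), Adgre1 (-3.95 and -4.01) and Fcer1g (-2.34 and -2.30). Of the 5 plasmacytoid dendritic markers, Cox6a2 and Ly6d rose in null ASC, by 1.81 and 1.39. Siglech differed by 0.18 (adjusted p 0.525), and Ccr9 and Klk1 were not well above background on any ASC array. In WT and null BM-MSC the group means were -2.79 and -0.47 for Cox6a2, and -2.27 and -2.51 for Ly6d. Ly6d thus read higher in WT BM-MSC than in WT ASC, where its mean was -3.58, opposite to the members. The log2 of the summed signal of that list was 5.75 to 6.29 in WT ASC, 6.14 to 6.32 in null ASC, 5.85 to 6.12 in WT BM-MSC and 6.07 to 6.23 in null BM-MSC. It is set almost wholly by Siglech, which read 5.74 to 6.38 over the arrays, and so hides the dimmer markers. The part of such cells was not tested.

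In BM-MSC the rise took in Ifit1 and Ifit2, Isg15, and Mx1, Mx2 and Rsad2. Of the 6 sensors Ifih1 alone rose there, by 0.44. Isg15 rose by 0.74 (SE 0.147, adjusted p 0.00828), Ifit1 by 0.65 (SE 0.177, adjusted p 0.0282) and Mx2 by 1.08 (SE 0.225, adjusted p 0.00995). Oasl1 read -6.90 and -4.74 in WT BM-MSC and -2.60 and -2.28 in null BM-MSC, a rise of 3.38 (SE 0.613, adjusted p 0.00574), with 1 of the 2 wild-type arrays well above background. Over the alternatives its value ran from 1.11 to 4.46, and the call was lost when the 4 BM-MSC arrays were fitted alone. For Rsad2 the null cells were at least 3.11-fold higher (adjusted p 0.0128). Mx1 read -6.47 and -5.24 in WT BM-MSC, again with 1 array well above background, and -4.61 and -4.01 in null BM-MSC, a rise of 1.55 (SE 0.394, adjusted p 0.0218). Under normexp correction the rises were 1.11 for Oasl1, 0.56 for Rsad2 and 0.37 for Mx1, all still past the threshold.

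Smaller rises had smaller errors: Parp9 rose by 0.60 (SE 0.0644, adjusted p 0.000628), Ifi35 by 0.43 (SE 0.0727, adjusted p 0.00417), Stat2 by 0.40 (SE 0.0786, adjusted p 0.00811) and Irf1 by 0.31 (SE 0.0454, adjusted p 0.00226). Of all members called in BM-MSC, Ifi35 alone kept its call in all 19 alternatives. Xaf1 read 5.41 and 5.29 in WT BM-MSC and 5.06 and 5.19 in null BM-MSC, and fell by 0.22 (SE 0.0698, adjusted p 0.0447). It lost that call without any 1 of 9 of the arrays. Irf7 differed by -0.01, Trim25 by -0.02 and Parp14 by 0.02, none of them past the threshold. Trim25's second probe gave 0.25 in BM-MSC and 0.42 in ASC, against -0.02 and 0.24 from the probe used.

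The duplicate cultures of null BM-MSC were not alike in this gene set. The second array was above the first for 28 of the 31 members, with a median gap of 0.36, whereas over all genes 45.6% were higher on the second array and the median gap was -0.01. The gap reached 1.11 for Oas2, which read -2.62 and -1.50, and 1.07 for Usp18, which read -0.27 and 0.80. The 2 cultures were more than 0.5 apart for 12 members, as for 8.23% of genes. Oas3, not well above background in these cells, ran the other way, with -4.57 and -5.56. In the other groups the members' median gap was 0.02 in WT ASC, -0.05 in WT BM-MSC, -0.04 in null ASC and 0.01 in the tumor line.

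**Figure D3:**
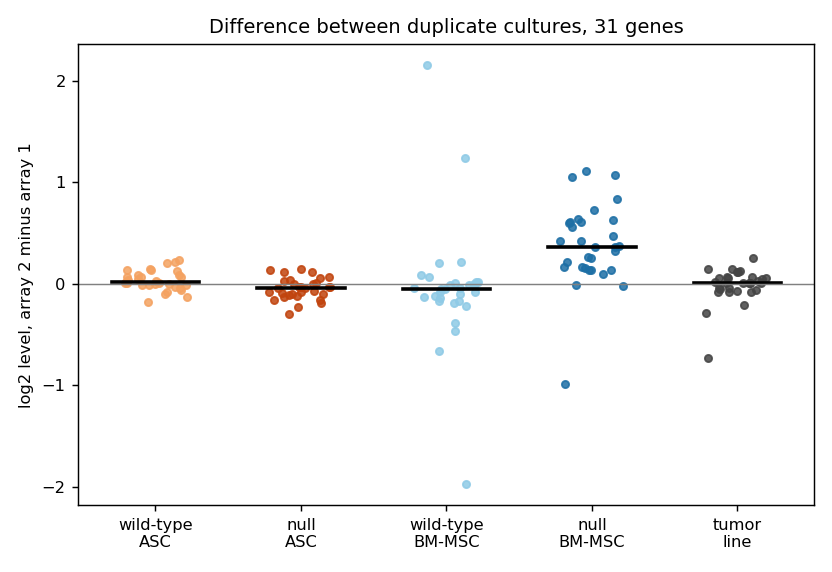
Level on the second array minus level on the first for each of the 31 members in each of the 5 groups, in log2 units. The null BM-MSC points lie mostly above 0, 28 of 31, while the other groups scatter around 0.

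The null BM-MSC counts move with these 2 cultures. The 15 members that rose became 9 without the second null BM-MSC array and 21 without the first. The members that kept their call without any 1 array were Oasl1, Isg15, Parp9, Ifi35, Stat2 and Irf1. Mx1, Rsad2 and Parp12 lost it without the second null BM-MSC array, Ifih1 without that array or without the second WT BM-MSC array, Mx2 without the first WT BM-MSC array, and Ifit1 and Rtp4 without either WT BM-MSC array. Ifit2 and Oas1a lost it without any of several arrays. Without the second null BM-MSC array the change was 0.34 for Ifit1, 0.72 for Mx2 and 0.55 for Rtp4, in place of 0.65, 1.08 and 0.97, and it was 0.38 for Oas1a in place of 0.68. The Mx1 change was 0.93 without the first WT BM-MSC array. A fit of the 4 BM-MSC arrays alone called 5 members higher and none lower.

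The change in null cells differed between tissues for 9 of the 31 members by the contrast of the 2 differences. The signed change in BM-MSC was above that in ASC for 1 and below it for 8. Among all genes 31.4% were called, 14.7% above and 16.7% below. The 29.0% of members called was thus a share near that of all genes. The median difference was -0.20 over the members and 0.00 over all genes. Zbp1 was at -2.23 (SE 0.262, adjusted p 0.00134), having risen in ASC and read -0.39 in BM-MSC (adjusted p 0.152). Dhx58 was at -1.22 (SE 0.195, adjusted p 0.00463), Parp14 at -0.81 (SE 0.159, adjusted p 0.0103), Eif2ak2 at -0.66 (SE 0.088, adjusted p 0.00218) and Xaf1 at -0.66 (SE 0.0987, adjusted p 0.00356), and these 5 kept their call without any 1 array. Irf7 at -0.69, Parp12 at -0.38 and Trim25 at -0.26 did not. Ifit2 was the member on the other side, at 0.66 (SE 0.154, adjusted p 0.0195), from a change of 0.35 in BM-MSC and -0.31 in ASC, a call lost without any of 6 arrays. The 8 lower calls became 5 without the first WT ASC, the first WT BM-MSC or the second null ASC array, and 13 without the second null BM-MSC array, and the 1 higher call became 6 without the first null BM-MSC array. The members named above as called in one tissue alone, apart from these 9, are not shown to differ between tissues; for Ifit3 the difference of changes was 0.69 (adjusted p 0.0746).

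Members differed between the tumor line and BM-MSC in both directions. Against null BM-MSC, the cells that were placed in mice, 6 of the 31 were higher and 14 were lower. Among all genes 35.1% were higher, 34% lower and 69.1% called in either direction. The 64.5% of members called was a share near that of all genes. The median was -0.25, against -0.03 for all genes, with 2 members higher and 10 lower by more than 2-fold. The 10 include Oas3, whose size is not known, since it was not well above background in either group. The arrays did not overlap for 25 of the 31, as for 85.9% of genes. Because the tumor arrays lie on a slide of their own, each of these differences holds the slide as well. Markers of other cells moved in both directions: the myeloid Cd68 and Cd14 were higher in the tumor line by 1.49 and 1.47, Lyz2 at least 11.2-fold and Tyrobp at least 10.2-fold, whereas Itgam was lower by a difference of -1.41, and Adgre1 missed the threshold at -0.32 (adjusted p 0.164). Group means in the tumor line and null BM-MSC were -0.95 and 0.38 for Fcer1g, 0.50 and 1.24 for Csf1r, and -1.79 and -2.08 for Aif1. Laptm5 was well above background in the tumor line alone. The globin gene Hba-a1 was higher in the tumor line, at 0.18 against -3.82, and the plasmacytoid marker Ly6d at least 6.58-fold lower. Their part in the members' differences was not tested. Without the second null BM-MSC array 11 members were higher and the median was -0.01, and without the first the median was -0.50.

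**Figure D4:**
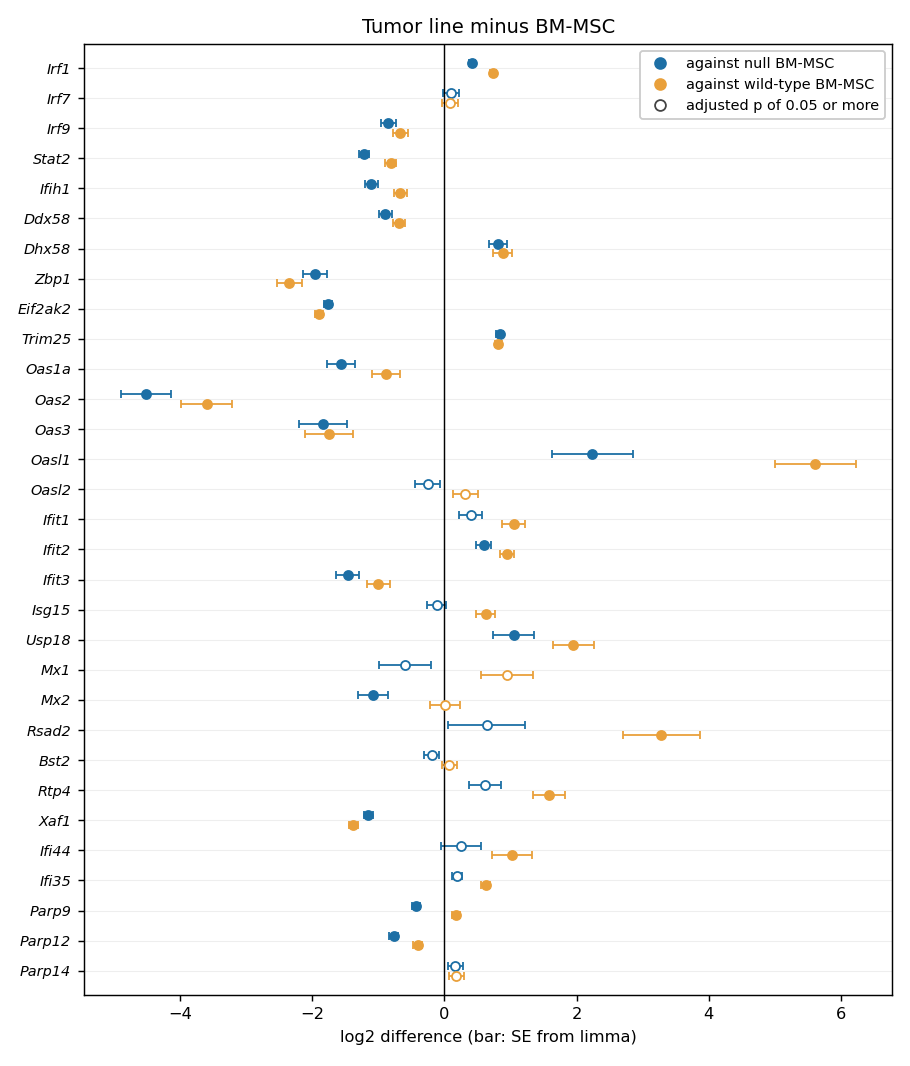
Log2 difference of the tumor line minus null BM-MSC and minus WT BM-MSC for each of the 31 members, with limma's standard error as bars; open circles are differences with an adjusted p at or above 0.05. Oasl1 lies highest, and Oas2, Zbp1 and Eif2ak2 lie far below 0.

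Among the lower members, Eif2ak2 read -0.08 and -0.16 in the tumor line against 1.57 and 1.72 in null BM-MSC, a difference of -1.76 (SE 0.0622, adjusted p 1.17e-06). It had read 1.79 and 1.77 in WT BM-MSC, so the tumor line lay below both. Zbp1 read -2.23 and -2.10 in the tumor line and differed by -1.96 (SE 0.185, adjusted p 0.000101). Oas2 was not well above background in the tumor line, at least 8.995-fold lower than in null BM-MSC (adjusted p 5.65e-05). Oas1a differed by -1.56 (SE 0.217, adjusted p 0.000692) and Ifit3 by -1.47 (SE 0.171, adjusted p 0.000286). Oas3 is counted among the lower members, but was not well above background in either group, so no size is given.

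Both Stat2 and Irf9, of the type I complex, were lower too. Stat2 read 1.90 and 1.96 in the tumor line against 3.04 and 3.25 in null BM-MSC, a difference of -1.21 (SE 0.0786, adjusted p 1.61e-05), and Irf9 differed by -0.85. The RNA sensors Ifih1 and Ddx58 differed by -1.11 and -0.89. The second probe of Ddx58, well above background on all 10 arrays, gave -0.13. Against WT BM-MSC the calls of both genes were lost when their 2 probes were averaged. Xaf1 differed by -1.15 (SE 0.0698, adjusted p 1.18e-05), Mx2 by -1.08, Parp12 by -0.77 and Parp9 by -0.43. The value for Parp9 was 0.42 when its 2 probes were averaged; the second was well above background on 5 arrays.

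The 6 members higher in the tumor line than in null BM-MSC were Oasl1, Usp18, Trim25, Dhx58, Ifit2 and Irf1. Oasl1 read -0.22 and -0.20 in the tumor line, close to WT ASC, and differed from null BM-MSC by 2.23 (SE 0.613, adjusted p 0.0158). Trim25 read 5.13 and 5.26 in null BM-MSC and 6.02 and 6.04 in the tumor line, a difference of 0.84 (SE 0.0537, adjusted p 1.54e-05). Dhx58 differed by 0.81 (SE 0.138, adjusted p 0.00189), opposite to its partner Ifih1 and to the brighter probe of Ddx58. Irf1 differed by 0.42 (SE 0.0454, adjusted p 0.00021), and by -0.045 when its 2 probes were averaged. Usp18 differed by 1.05 (SE 0.312, adjusted p 0.0219), or by 0.51 without the first null BM-MSC array and 1.58 without the second; the calls for Usp18 and Oasl1 were lost without either tumor array, and that for Oasl1 also without the first null BM-MSC array. Isg15, at -0.12 (adjusted p 0.508), Bst2 at -0.19 and Irf7 at 0.10 missed the threshold.

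Against WT BM-MSC, which shares the tumor arrays with the comparison above, 13 members were higher and 12 lower, where 33.9% of all genes were higher, 33.5% lower and 67.4% called in either direction; the median was 0.17, against -0.03. The arrays did not overlap for 29 of the 31, as for 83.7% of genes. Oasl1 was higher by 5.61 (SE 0.613, adjusted p 0.000213), with 1 of the 2 wild-type arrays well above background and 2.79 to 6.69 over the alternatives. Usp18 was higher by 1.95, Rtp4 by 1.58 and Isg15 by 0.63, and Rsad2 was at least 4.85-fold higher (adjusted p 0.0024), or by 0.70 on the log2 scale under normexp correction. Zbp1 was lower by a difference of -2.35, Eif2ak2 by -1.90, Xaf1 by -1.38, and Oas2 was at least 4.76-fold lower. The call for Isg15 was lost without the second WT BM-MSC array and that for Oas1a, at -0.88, without the first. Ifi44, at 1.03, lost its call without any of the 4 arrays compared, and Parp9, at 0.17, without any of 8 arrays.

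Of 12 interferon genes tested, 5 (Ifna1, Ifna12, Ifna14, Ifnab and Ifnl3) were well above background on all 10 arrays, and another 2 were well above background in ASC and on no marrow-derived array. Ifnb1, the first type I interferon made by most cells, read -4.18 and -4.20 in WT ASC and -2.90 and -2.86 in null ASC, a rise of 1.31 (SE 0.131, adjusted p 0.0004). Ifng, the type II interferon, read -5.00 and -4.66 in WT ASC and -1.91 and -1.85 in null ASC, a rise of 2.96 (SE 0.178, adjusted p 5.13e-05). Both were thus dim but measured in ASC, and both rose in null ASC. Between null tissues Ifnb1 was at least 4.28-fold and Ifng at least 8.59-fold lower in BM-MSC; between wild-type tissues the bounds were 2.25-fold and 1.44-fold. Ifne, an epithelial interferon, was well above background in the tumor line alone, at -4.89 and -5.01. Whether the dim signals are the named transcripts was not tested beyond the array's own background call.

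**Figure D5:**
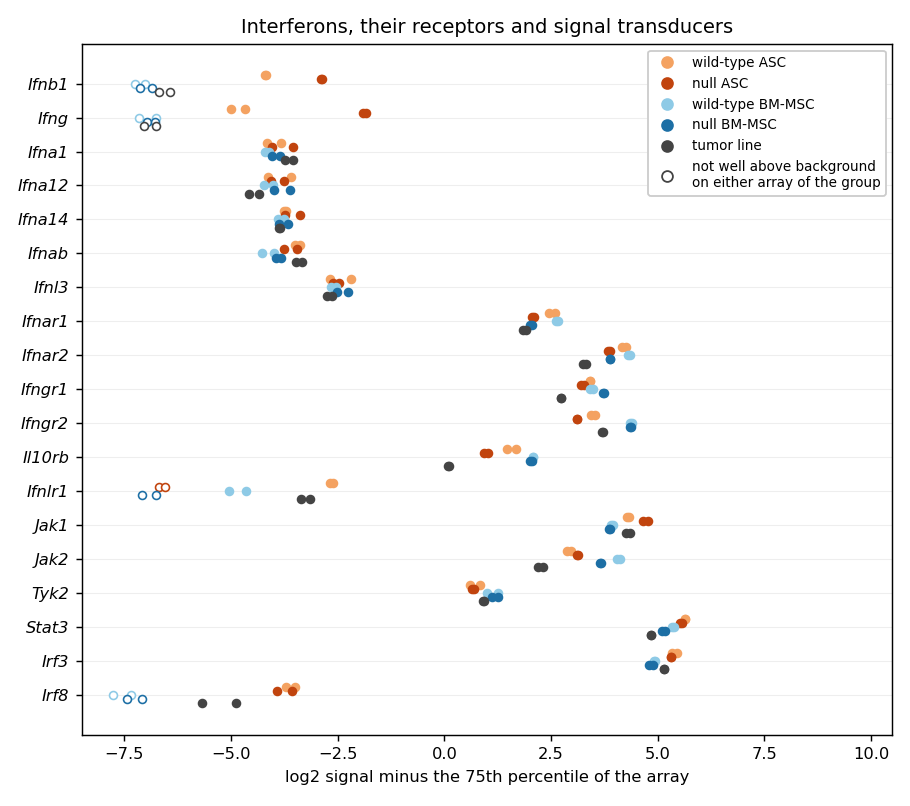
Levels of interferon genes, receptors and signalling genes upstream of the members on the 10 arrays, as log2 signal minus the array's 75th percentile; open circles mark groups where the probe was not well above background on either array. Ifnb1 and Ifng have filled points in the ASC groups alone.

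The receptors ran otherwise. All 6 tested were lower in null ASC than in WT ASC, as were 19.9% of all genes, and in BM-MSC 3 were lower and 1 was higher, as were 19.3% and 19.6% of all genes. Ifnar1 and Ifnar2, the type I receptor chains, fell by 0.44 and 0.37 in ASC and by 0.61 and 0.43 in BM-MSC, and neither differed past the threshold between tissues. Ifngr2, a chain of the type II receptor, was higher in BM-MSC than in ASC, by 0.89 in wild-type and 1.26 in null cells. Ifnlr1, the lambda interferon receptor, was at least 4.94-fold lower in null than in WT ASC. Receptor levels and member levels thus differed in direction between null and WT ASC.

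Of the Janus kinases, Jak2 was higher in BM-MSC, by 1.17 and 0.53, and Jak1 lower, by differences of -0.37 and -0.85. Irf8, a factor best known from myeloid cells, was well above background in ASC and not in BM-MSC, at least 3.36-fold lower there in wild-type cells and 2.35-fold in null cells.

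Among sensors and adaptors outside the members, Cgas, the sensor of cytosolic DNA, rose by 1.18 in null ASC (SE 0.049, adjusted p 1.57e-05) and by 0.42 in null BM-MSC, with a difference of changes of -0.76 (SE 0.0694, adjusted p 0.000501). Sting1, its adaptor, fell by 0.78 in null BM-MSC (SE 0.0725, adjusted p 0.000349) and differed by 0.07 in null ASC (adjusted p 0.515). Irf5 went opposite ways, up by 0.82 in null ASC and with a change of -1.48 in null BM-MSC. Irf3 was lower in BM-MSC than in ASC by a difference of -0.46 in each genotype, and Socs1, a feedback inhibitor of Janus kinases, rose in null cells of both tissues, by 0.58 in ASC and 0.64 in BM-MSC.

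A further 54 interferon-induced genes outside the members were tested. Of these, 46 were lower and 3 higher in WT BM-MSC than in WT ASC (28.5% and 25.2% of all genes), and 45 lower and 5 higher between null tissues (30% and 25.2%). Cmpk2, a mitochondrial nucleotide kinase, was at least 40.7-fold lower in WT BM-MSC than in WT ASC, Ifi27l2a differed by -4.83 and Slfn2 by -4.82. Ifitm1, which blocks viral entry, ran against the rest and was higher in BM-MSC by 2.79 in wild-type and 1.06 in null cells. In null ASC 26 rose and 8 fell (21.1% and 19.9% of all genes), led by Herc6 at 1.27 and Trim30a at 1.12, with Tgtp1 falling by 1.39. In null BM-MSC 18 rose and 12 fell (19.6% and 19.3% of all genes), with Nmi up by 1.24, Ifi27l2a by 1.21, Cmpk2 at least 2.70-fold higher, and Ifitm1 falling by 1.71. Against null BM-MSC, 15 were higher and 25 lower in the tumor line, 74.1% called against 69.1% of all genes, a share near that of all genes. Among them Trim14 was at least 10.01-fold higher and Trim30a at least 16.2-fold and Trim30d at least 6.33-fold lower.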

How the data were processed

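RNA from 10 cultures was hybridised to 1-colour Agilent whole-genome arrays. The deposited scanner files, written by Feature Extraction 10.7.3.1 as their headers state, give each spot's background-subtracted intensity, per the file headers. The authors' deposited value table holds log2 values: each column's median was 5.04 to 5.06, its correlation with the scanner values 0.989 to 0.993 and its slope 0.947 to 0.974 over the brighter probes, while its normalization and centring stay unknown. The submitters' processing notes name limma (version not given).

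Here log2 intensity minus each array's 75th percentile (396 to 502 scanner units) was used, with spots of a probe averaged, outlier flags and control spots left out, and the brightest probe kept per gene name. Probes were named by accession (27178), symbol (3574) or synonym (565) through RefSeq, or kept the file's name (24287; 40 for the members). Where 1 or more groups had both arrays well above background, the gene was tested (22601 genes) with limma 3.58.1 (R 4.3.3): lmFit and eBayes over 5 groups, 5 residual degrees of freedom, 7 contrasts, two-sided, Benjamini-Hochberg adjustment over all genes tested, threshold 0.05. "Rose", "fell", "higher" and "lower" mean past this threshold, and errors are limma's standard errors, with a median of 0.0955 for a difference of 2 groups. With 2 arrays a group, their number limits the precision. Members and lists were chosen with earlier results of these data known. All members were accounted for; of the pathway list, ligands, receptors, kinases, sensors and factors could be named, and of the further induced genes the 3 highest and 3 lowest called per contrast whose groups did not overlap. Alternatives were other background corrections, scalings, filters and probe rules, the deposited table, a replicate block, fits of the compared groups alone, and leaving out each array. Replicate numbers did not pair the cultures, with correlations of -0.122 to 0.116 and 2 of 10 pairs over 0.1. A gene of the pathway list is not reported here.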

Additional observations from a re-analysis of the deposited data

Results flagged for a closer look

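The change between null and wild-type cells differed between BM-MSC and ASC for 9 of the 31 members, by limma's test of the difference itself. This was 29.0% of the members, a share near the 31.4% of all genes called. Each value is the change in BM-MSC minus the change in ASC, in log2 units: Zbp1 was at -2.23, Dhx58 at -1.22, Parp14 at -0.81, Irf7 at -0.69, Eif2ak2 at -0.66, Xaf1 at -0.66, Parp12 at -0.38, Trim25 at -0.26 and Ifit2 at 0.66. Zbp1 was -0.39 in BM-MSC and 1.84 in ASC, and Xaf1 was called in both tissues with opposite sign, -0.22 in BM-MSC and 0.43 in ASC. Ifit2 was 0.35 in BM-MSC and -0.31 in ASC, of which the ASC value missed the threshold. Of the 9, the sensors Zbp1, Dhx58 and Eif2ak2 and the genes Parp14 and Xaf1 kept their call in all 19 alternatives.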

How the results depend on the processing

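Over 19 alternatives, 3784 of 4088 values of single members kept their call or stayed uncalled, 190 lost the threshold, 109 gained it and 5 turned direction. A turn was counted only where the value was past the threshold in the main fit, the alternative or both. Values uncalled in both could change sign and are not listed. The tissue difference was stable in both genotypes: 30 members were lower in wild-type BM-MSC without any 1 array, and 30 to 31 in null BM-MSC. Changes in null BM-MSC were not: 15 members higher became 5 when only the groups compared were fitted, and 9 to 21 without 1 array; the 1 lower became 0 under the array median, no filter on dim probes, only the groups compared and the replicate block, and 0 to 1 without 1 array. In ASC 23 higher became 15 to 27 without 1 array, and 0 lower became 1 under normexp, quantile normalization, the deposited table, the filter over all 10 arrays and the replicate block. For the difference of changes, 1 higher became 2 under normexp, 0 under the array median and 0 to 6 without 1 array, and 8 lower became 5 under the array median and with no filter, and 5 to 13 without 1 array. In the tumor line 6 higher and 14 lower than null BM-MSC became 4 to 11 and 14 to 18 without 1 array, and 13 and 12 against WT BM-MSC became 11 to 15 and 11 to 12 without 1 array. Values that turned direction were the members' median difference of changes, 0.085 without null BM-MSC replicate 1; Oasl1's under normexp (-1.12); Rtp4's without null BM-MSC replicate 2 (-0.36, and up to 0.48 without another array); and, for the tumor line against null BM-MSC, Ifi44 without null BM-MSC replicate 1 (-0.28, and up to 0.77 without another array) and, with probes averaged, Irf1 (-0.045) and Parp9 (0.42). The cause was not tested. Scaling to the array median moved the median of all genes by 0.11 between null tissues, and the share of higher among called genes from 45.7% to 55.8%; no filter moved it by -0.13 between tumor line and null BM-MSC. The replicate block left 211 of 217 member calls as they were, with 4 lost and 2 gained; replicate numbers did not pair the cultures. A slide block for the tumor line was not possible, as its arrays fill their own slide. Signal over background limits Oas2, Oas3, Oasl1, Mx1 and Rsad2.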
